A study of Mus musculus with 8 samples.

Results

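The genes described here are 7 chemokines of myeloid cells, Ccl2, Ccl3, Ccl4, Ccl6, Ccl9, Cxcl2 and Cxcl10, of the 32285 genes in the count table. The set was drawn up by gene name, at a time when earlier results of the same counts were known. Single-cell RNA sequencing compared cells cultured with deoxycholic acid and cells cultured in medium alone. Both groups started from mouse whole bone marrow cells, and both were kept for 1 week in long-term culture medium with hydrocortisone on AFT024 cells, a pre-irradiated line of embryonic mouse liver fibroblasts that serves as a feeder layer. The deoxycholic acid group received this secondary bile acid at 35 µM and the media control group received none. Adherent cells were lifted with trypsin and pooled with the cells in the medium, and lineage-negative cells were then sorted. The labels name neither the strain nor the age of the mice.

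The labels list 4 samples per group, but a cell's name gives only its group, so a group is 1 library here and its values stand without a test. The deoxycholic acid library held 8520 barcodes and the media control library 9346, with 131341422 and 183462851 unique molecular identifiers (UMIs, each a counted transcript molecule). After filtering, 7755 deoxycholic acid cells and 8495 media control cells were kept, at a median depth of 14424 and 18831 UMIs. The deoxycholic acid library was thus the shallower of the pair, and 25 barcodes occurred in both. Levels are given as CPM, a gene's UMIs per 1000000 UMIs of the summed cells. A log2 ratio is deoxycholic acid over media control, so that a negative value means less transcript with deoxycholic acid. Intervals in parentheses are exact 95% intervals that cover counting error only. They take the UMIs of a cell as independent, hold no spread between cultures, and therefore give no replicate check.

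Chemokines are small secreted proteins that steer leukocytes along concentration gradients by binding G protein-coupled receptors. In mice, Ccl2 attracts monocytes through the receptor Ccr2, Ccl3 acts on Ccr1, Ccl4 is a close relative of Ccl3, and Ccl6 and Ccl9, which belong to a rodent group of CC chemokines, act on Ccr1. Cxcl2 draws neutrophils through Cxcr2, and Cxcl10, a classical interferon-induced gene, acts on Cxcr3. Activated myeloid cells release several of these together, and NF-kappaB is a common inducer of their transcription.

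RefSeq promoter sequences (GRCm38.p6) were available for 5 of the 7 genes, all but Ccl2 and Ccl4. The 250 bases before the start of transcription are printed for 3 of them, Ccl3, Cxcl2 and Cxcl10. Those of Ccl6 and of Ccl9, which had a further pattern, are described in words. Capitals mark matches to motifs searched on both strands, which were GGG, any 2 bases, TT, any base and CC for NF-kappaB; TGA, any base and TCA for AP-1; GAAA, any 2 bases and GAAA for the interferon-stimulated response element; and TTGC, any 2 bases and AA for C/EBP. The matches do not overlap one another. Ccl3 lies on the minus strand at chr11:83649379-83649628, Cxcl2 on the plus strand at chr5:90903649-90903898 and Cxcl10 on the minus strand at chr5:92348890-92349139.
Ccl3: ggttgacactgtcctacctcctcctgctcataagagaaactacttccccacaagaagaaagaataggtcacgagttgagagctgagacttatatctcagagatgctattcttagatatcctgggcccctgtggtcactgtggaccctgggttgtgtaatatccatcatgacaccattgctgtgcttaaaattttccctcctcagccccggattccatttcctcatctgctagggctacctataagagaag
Cxcl2: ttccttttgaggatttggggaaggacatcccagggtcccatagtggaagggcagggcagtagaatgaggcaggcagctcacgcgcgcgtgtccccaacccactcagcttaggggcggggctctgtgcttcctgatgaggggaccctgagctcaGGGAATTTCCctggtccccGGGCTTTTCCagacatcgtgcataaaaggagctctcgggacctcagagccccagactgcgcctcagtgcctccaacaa
Cxcl10: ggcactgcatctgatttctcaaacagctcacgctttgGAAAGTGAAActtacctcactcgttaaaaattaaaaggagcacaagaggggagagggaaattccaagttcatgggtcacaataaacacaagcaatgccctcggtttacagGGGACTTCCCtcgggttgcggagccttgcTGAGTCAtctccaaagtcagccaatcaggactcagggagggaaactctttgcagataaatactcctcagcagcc
The Cxcl2 window holds a pair of NF-kappaB matches, GGGAATTTCC from 97 to 88 and GGGCTTTTCC from 78 to 69 bases before the start. The Cxcl10 window holds the interferon-response match GAAAGTGAAA from 213 to 204, the NF-kappaB match GGGACTTCCC from 103 to 94 and the AP-1 match TGAGTCA from 74 to 68 bases before the start. None of these letters occurs in the windows of Ccl3 and Ccl6, while that of Ccl9 (chr11:83578637-83578886, minus strand) holds TGAATCA and, on the opposite strand, GGAAAGCCCC. Ccl6 (chr11:83593088-83593337, minus strand) and Ccl9 share the stretch GCCCTCCACTTCC, which begins 55 bases before the start in Ccl6 and 14 in Ccl9. Of 32851 promoters of this length, 4.11% hold the NF-kappaB letters, 6.75% the AP-1 letters, 2.98% the interferon-response letters and 9.56% the C/EBP letters.

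Basophils, although few, carried most of the Ccl4 RNA and a smaller part of the RNA of the other chemokines. Cells with at least 10 UMIs per 10000 of the granule proteases Prss34 and Cpa3 and the histamine-forming enzyme Hdc together are called basophil-rule cells. They were 92 deoxycholic acid cells (1.19%, 0.957 to 1.45) and 152 media control cells (1.79%, 1.52 to 2.09). They held 0.528% of all UMIs in the deoxycholic acid library and 0.804% in the media control library, at a median depth of 4545.5 and 6124 UMIs per cell. Genes that the rule did not use fitted the name. Mcpt8, a basophil protease, was at 8458 CPM in the rule cells of the deoxycholic acid library and 7093 CPM in those of the media control library, against 49.4 and 42.9 CPM in the other cells. Fcer1a, a subunit of the IgE receptor, was at 75.6 and 91.2 CPM inside and had 2 and 1 UMIs in all other cells. Prss34 itself stood at 2759 CPM in the rule cells of the deoxycholic acid library and 4050.0 CPM in those of the media control, so the rule drew on a gene that differed between the libraries. Only 9 deoxycholic acid and 12 media control cells lay just below the threshold, between 5 and 10 UMIs per 10000, and 10 and 19 lay just above it, between 10 and 20.

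Clusters of both libraries together, drawn and named without chemokine genes, gave 16 groups of cells. Cluster 12 (89 deoxycholic acid and 149 media control cells) was basophil-like and held 82 of the 92 deoxycholic acid and 141 of the 152 media control basophil-rule cells. Most of the others, 17, lay in cluster 10, where they had Cpa3 but almost no Prss34 (7.32 CPM) and only 29.3 CPM of Ccl3. Cluster 0 was mature neutrophil-like, clusters 1, 2 and 6 were immature neutrophil-like, and clusters 3 and 5 resembled granulocyte-monocyte progenitors (GMP-like). The remaining clusters met no name and are called by their leading genes. These include cluster 10 (Hpgd, Ccr2, Fabp5), cluster 11 (Vcan, S100a4, Ahnak), cluster 13 (Cdkn2a, Cald1, Ptn, with 9 stromal fibroblast markers raised but none among its leading genes) and cluster 14 (Gpnmb, Wfdc17, 39 cells). Mature neutrophil RNA was present in spite of the lineage-negative sort, with Mmp9, a neutrophil protease, at 226 CPM in cluster 0 and 1.43 CPM elsewhere.

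The source cells differed from gene to gene. Ccl3 was at 3296 CPM in the basophil-like cluster (3210 to 3384) and at 1409 CPM in cluster 14 (1177 to 1674). It was at 85.7 CPM in cluster 11 and 70.3 CPM in mature neutrophil-like cells. In clusters 6, 2, 1 and 9 it was at 44.9, 42.7, 40.4 and 40.0 CPM, neighbours that were not separable by counting error, and in GMP-like cells it was at 21.2 and 14.4 CPM. Cluster 13 had 2.06 CPM, from 2 UMIs. The basophil-like cluster thus stood far above a broad low level that reached clusters 0 to 11.

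Ccl4, the close relative of Ccl3, was much more restricted. It was at 1932 CPM in the basophil-like cluster, which held 73.0% of its UMIs, against 35.9% for Ccl3. The next levels were 153 CPM in cluster 14 (83.6 to 257), 24.2 CPM in cluster 15 (12.1 to 43.3), 20.9 CPM in cluster 11 (17.3 to 25.1) and 11.1 CPM in cluster 10. All other clusters lay at or below 7.52 CPM, and cluster 13 had no UMI.

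Cxcl2 had a pair of high sources, the basophil-like cluster at 4929 CPM (4824 to 5036) and cluster 14 at 4555 CPM (4129 to 5014), whose intervals overlap. Cluster 11 followed at 455 CPM and mature neutrophil-like cells at 378 CPM. Immature neutrophil-like clusters were at 52.97 to 75.8 CPM and GMP-like clusters at 95.5 and 105 CPM. The basophil-like cluster held 19.4% of Cxcl2 UMIs, and the rest were spread over all the larger clusters.

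Ccl6 followed the neutrophil clusters. It was at 2163 CPM in mature neutrophil-like cells, which held 34.9% of its UMIs, and at 570 CPM in cluster 2, 335 CPM in cluster 6 and 211 CPM in cluster 1, the immature neutrophil-like clusters. With finer clusters, at Leiden resolution 2, the leading cluster held 21.3% of the Ccl6 UMIs with deoxycholic acid and 23.1% in the media control, in place of 35.2% and 34.6%. GMP-like clusters had 66.2 and 62.8 CPM, which overlap, and cluster 10 had 18.4 CPM. The basophil-like cluster (2998 CPM, 2916 to 3082) and cluster 14 (3146 CPM, 2793 to 3531) were higher still and could not be separated from each other.

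Ccl9 ran the other way along the neutrophil line. Outside the basophil-like cluster, at 738 CPM, it was highest in cluster 10 at 89.0 CPM, with 24.9% of its UMIs. Cluster 11 had 61.2 CPM and the GMP-like clusters 47.6 and 40.5 CPM, while the mature and immature neutrophil-like clusters had only 2.10 to 3.99 CPM. Across the 14 clusters that had 50 or more cells from both the libraries, log levels of Ccl6 and Ccl9 had a Pearson correlation of 0.16, and of −0.54 without the basophil-like cluster. This is given as a description, since the clusters share libraries and depth.

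Cxcl10 had most of its UMIs in cluster 10 and in progenitor-like cells. Cluster 10 held 33.6% of its UMIs at 59.6 CPM (56.7 to 62.7), and GMP-like cluster 3 held 19.5% at 22.8 CPM. These shares depended on the clustering, since with the chemokine genes left in it the leading cluster held 52.7% of the UMIs with deoxycholic acid and 50.0% in the media control, in place of 36.5% and 31.2%. The level was 76.8 CPM in the basophil-like cluster (64.1 to 91.1) and 123 CPM in the 34 cells of cluster 15 (93.1 to 160), but these held only 2.90% and 1.25% of the UMIs. Clusters 9, 11 and 3, at 24.9, 23.4 and 22.8 CPM, could not be put in order. Mature neutrophil-like cells had 0.307 CPM.

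Ccl2 came for the most part from a cluster with collagen RNA. Cluster 13, whose 150 cells carried Col1a1, a collagen gene, at 37.1 CPM against 1.45 elsewhere, had 260 CPM of Ccl2 (229 to 295) and 64.7% of its UMIs. Cluster 11 had 11.5 CPM and 16.6% of the UMIs. Cluster 13 also held other chemokines, with Ccl7, which draws monocytes as Ccl2 does, at 59.7 CPM, Cxcl5, which draws neutrophils, at 36.0 CPM and Cxcl12, the ligand that retains progenitors in marrow, at 15.4 CPM. Of the Cxcl5 UMIs there, 1 was from the deoxycholic acid library and 34 were from the media control library, and Cxcl12 had 15 UMIs in all. The median depth of cluster 13 was only 3409 UMIs per cell. Whether these were feeder cells was not tested.

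**Figure D1:**
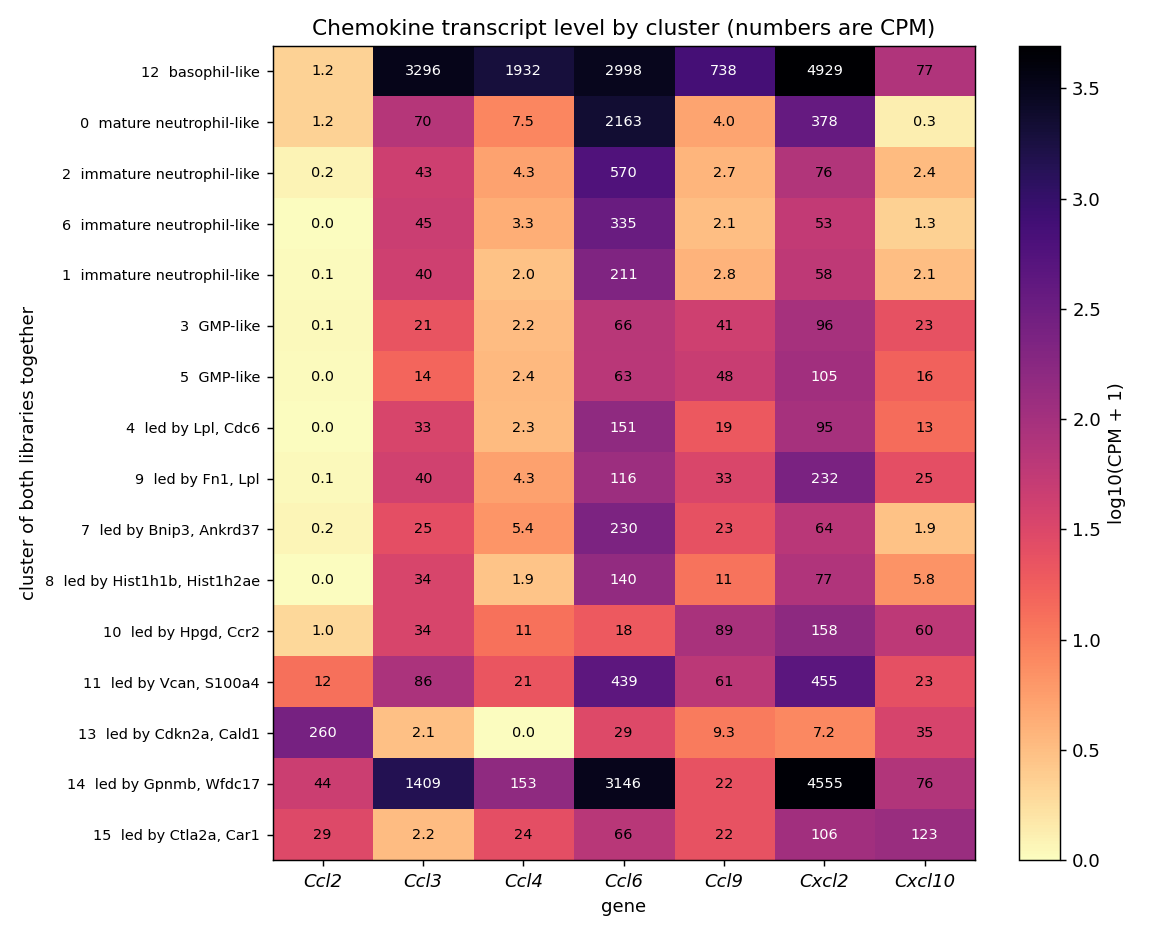
Level of the 7 chemokine genes in each of the 16 clusters of both libraries together. Numbers are CPM of summed UMIs, colour is log10(CPM + 1). The basophil-like cluster 12 is the highest compared cluster for Ccl3, Ccl4, Ccl6, Ccl9, Cxcl2 and Cxcl10, while Ccl2 peaks in cluster 13.

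A few cells held much of the RNA of some of these genes. Outside basophil-rule cells, the 1% of cells with the most UMIs of a gene held 75.9% of Ccl4 in the deoxycholic acid library and 67.6% in the media control library, and 63.8% and 60.5% of Cxcl10. The same shares were 23.4% and 20.2% for Ccl3, 24.1% and 26.0% for Cxcl2, 16.6% and 14.7% for Ccl9 and 10.1% and 10.7% for Ccl6. Ccl2 was found in only 25 deoxycholic acid and 87 media control cells. Ccl4 and Cxcl10 were therefore concentrated in few cells, whereas Ccl6 and Ccl9 were spread over many.

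With all kept cells summed, Ccl3, Ccl4, Ccl9 and Ccl2 were lower with deoxycholic acid, Ccl6 was slightly lower, Cxcl2 was level and Cxcl10 was slightly higher. Ccl3 had 4176 UMIs in the deoxycholic acid library, at 35.5 CPM (34.4 to 36.6), and 11376 UMIs in the media control library, at 68.4 CPM (67.1 to 69.7), a log2 ratio of −0.95 (−0.998 to −0.895). Ccl4 was at 10.6 CPM with deoxycholic acid and 19.5 CPM in the media control, a log2 ratio of −0.88 (−0.97 to −0.78). Ccl9 was at 25.8 CPM against 36.0 CPM (−0.48, −0.55 to −0.42). Ccl6 was at 268 CPM against 296 CPM (−0.15, −0.17 to −0.13). Cxcl2 was at 150.1 CPM against 152 CPM (−0.02, −0.05 to 0.01). Cxcl10 was at 17.2 CPM against 14.7 CPM (0.23, 0.14 to 0.31). Ccl2 had 90 UMIs against 301 UMIs, 0.765 CPM against 1.81 CPM (−1.24, −1.60 to −0.90). The libraries also differed in the share of their cells in each cluster. With the clusters weighted as in the media control, the log2 ratio was −0.72 for Ccl3, −0.35 for Ccl4, −0.26 for Ccl9, 0.10 for Cxcl2 and 0.44 for Cxcl10. With cells thinned to 5000 UMIs, which leaves out 48 of the 92 and 50 of the 152 basophil-rule cells and 46 of the 64 and 48 of the 86 cells of cluster 13, it was −1.54 for Ccl3, −2.36 for Ccl4, −2.23 for Ccl2, −0.43 for Ccl6 and −0.44 for Cxcl2.

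As background, a minimum of 20 CPM and 50 UMIs in whichever library was higher left 4670 genes, of which 148 had a log2 ratio of −0.5 or lower, which is 3.17%. Of the 7 chemokines, 4 met that minimum, and Ccl3 alone was past that fold. The median over the 4 was −0.31, beside 0.04 over all 4670 genes. Ccl2, Ccl4 and Cxcl10 were below 20 CPM in both libraries.

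Taking out the basophil-rule cells left Ccl3 lower, brought Ccl4 to about the same level in both libraries and turned Cxcl2 higher. Without them Ccl3 was at 26.7 CPM with deoxycholic acid and 41.6 CPM in the media control (−0.64, −0.71 to −0.58). Ccl4 was at 4.08 CPM against 4.36 CPM (−0.10, −0.27 to 0.07), a difference that was not detectable at this depth. Cxcl2 was at 132 CPM against 116 CPM (0.19, 0.16 to 0.22), and at 0.090 with cells thinned to 5000 UMIs. Ccl9 (22.7 against 30.8 CPM, −0.44), Ccl6 (254 against 279 CPM, −0.13), Cxcl10 (16.9 against 14.3 CPM, 0.24) and Ccl2 (0.752 against 1.81 CPM, −1.27) stayed near their values over all cells. Of 4657 genes measured in these cells, 3.09% were lower by at least 0.5, and Ccl3 was again the only one of the 4 measured chemokines among them. The median over those 4 was −0.29, beside 0.04 over all genes measured.

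**Figure D2:**
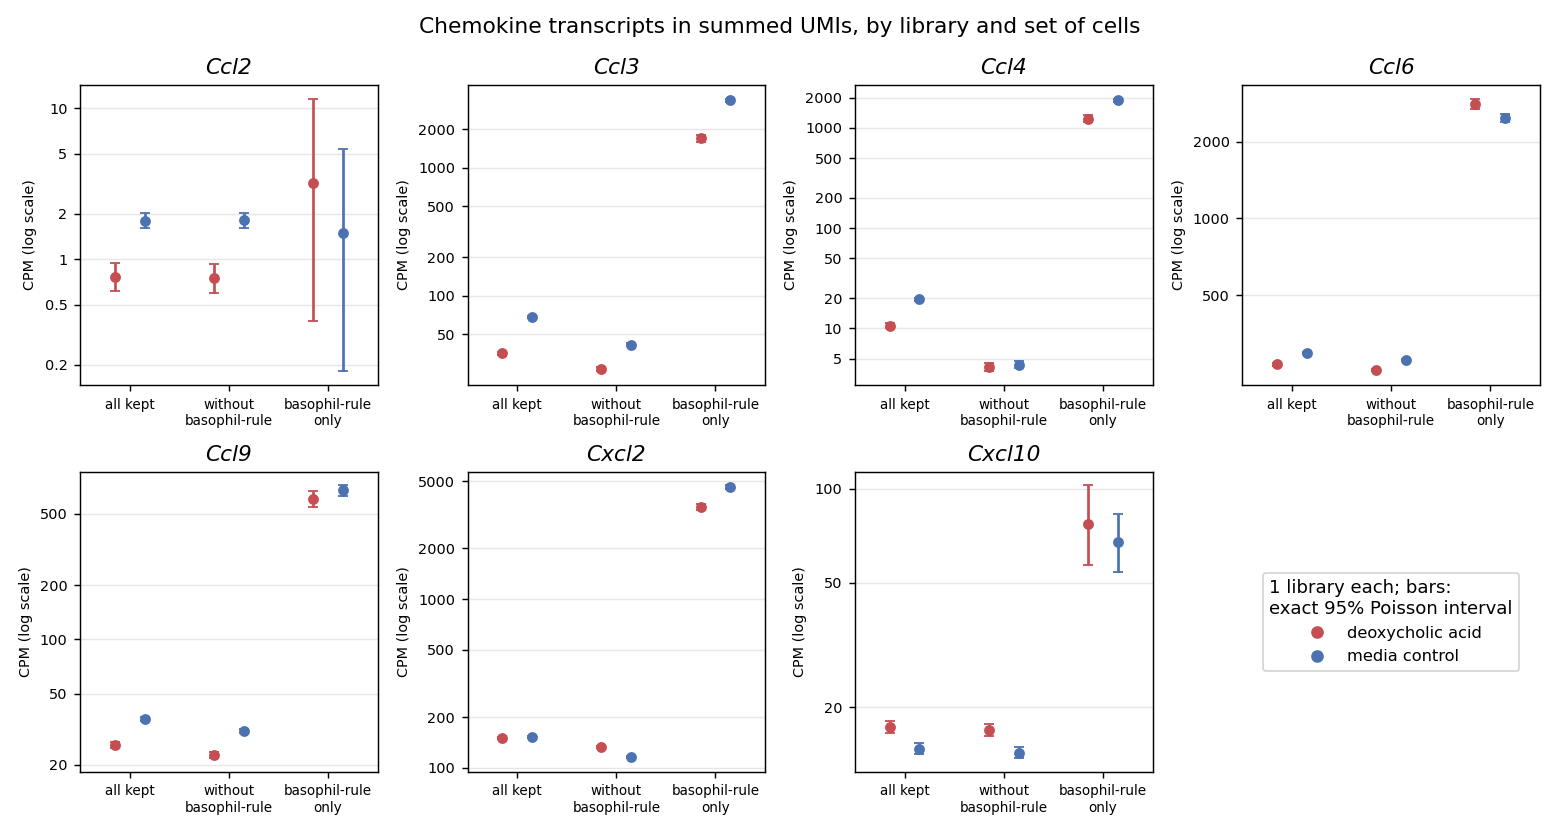
CPM of each chemokine gene (log axis, a scale of its own in each panel) in all kept cells, without basophil-rule cells and in basophil-rule cells only, with the deoxycholic acid library left of the media control library. Points are 1 library each and bars are exact 95% Poisson intervals. Ccl3 is lower with deoxycholic acid in all 3 sets of cells, while Cxcl2 is higher without basophil-rule cells (132 against 116 CPM) and lower inside them (3502 against 4616 CPM).

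The share of each gene's UMIs that came from basophil-rule cells was lower with deoxycholic acid for 6 of the 7 genes, all but Ccl2. For Ccl4 it was 61.7% (58.9 to 64.4) in the deoxycholic acid library and 77.8% (76.3 to 79.2) in the media control library. For Ccl3 it was 25.3% against 39.6%, for Cxcl2 12.3% against 24.4%, for Ccl9 12.46% against 15.09%, for Ccl6 5.55% against 6.70% and for Cxcl10 2.37% against 3.67%. Ccl2 had 2 UMIs in these cells in each library. Basophil-rule cells were also a smaller part of the deoxycholic acid library, 1.19% of cells against 1.79%. Over all genes together, their share of UMIs was likewise lower, 0.528% against 0.804%.

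In CPM of the whole library, basophil-rule cells accounted for −8.60 of the −8.87 CPM by which Ccl4 differed. For Ccl3 they accounted for −18.1 CPM and the other cells for −14.8 CPM. For Cxcl2 the parts were opposite, with −18.6 CPM from basophil-rule cells and 16.7 CPM from the others, which left −1.87 CPM in the sum. For Ccl6 and Ccl9 most of the difference lay in the other cells, at −23.7 and −8.02 CPM, against −4.99 and −2.22 CPM in basophil-rule cells.

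**Figure D3:**
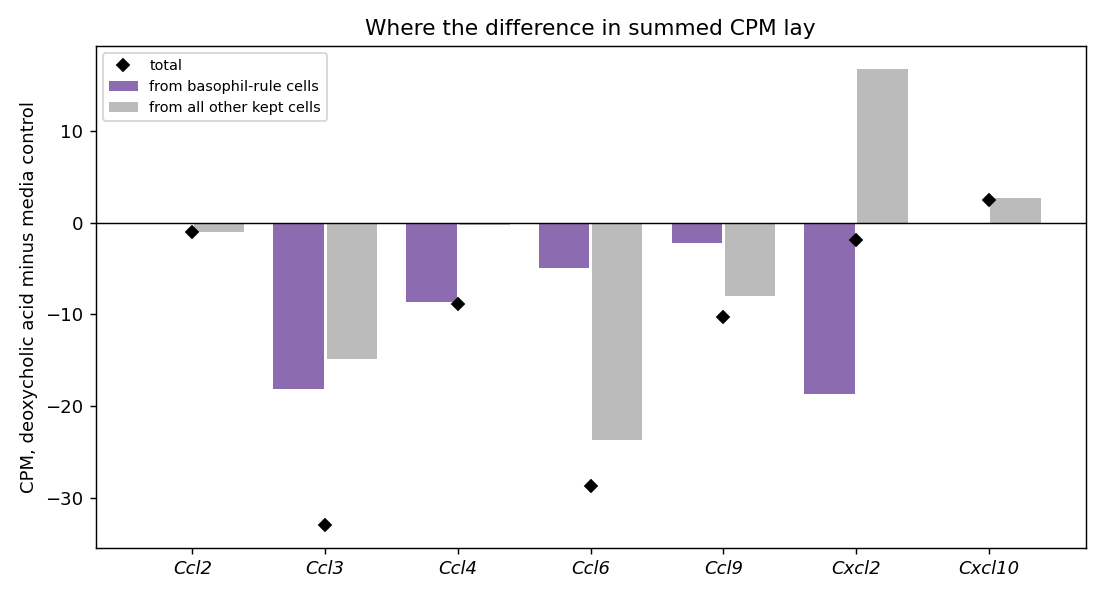
Difference in summed CPM, deoxycholic acid minus media control, split into the part from basophil-rule cells (purple bars) and the part from all other kept cells (grey bars), with the total as a diamond. The Cxcl2 bars have opposite signs and nearly cancel, and the Ccl4 difference lies almost wholly in basophil-rule cells.

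Inside basophil-rule cells the genes split. Ccl3 was at 1699.7 CPM with deoxycholic acid (1599 to 1805) and 3368 CPM in the media control (3271 to 3468), a log2 ratio of −0.99 (−1.08 to −0.89). Ccl4 was at 1238 CPM against 1883 CPM (−0.61, −0.72 to −0.49). Cxcl2 was at 3502 CPM against 4616 CPM (−0.40, −0.47 to −0.33). Ccl9 was at 608 CPM against 676 CPM (−0.15, −0.33 to 0.02), and Cxcl10, with 48 UMIs against 90 UMIs, was at 77.3 CPM against 67.3 CPM (0.20, −0.34 to 0.72). Ccl6 was at 2813 CPM against 2469 CPM (0.19, 0.10 to 0.27), the opposite sign to the other cells.

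Of 3191 genes measured in basophil-rule cells, 10.7% were lower by at least 0.5 and 5.39% higher, and 2 of the 6 measured chemokines, Ccl3 and Ccl4, were lower by that much. The median of the 6 was −0.28, beside −0.04 over all genes measured there. Outside cluster 12 lay 10 of the 92 deoxycholic acid and 11 of the 152 media control basophil-rule cells. They had only 51.8 and 6.04 CPM of Ccl3, so the values over all basophil-rule cells also hold this difference in makeup. Within cluster 12, basophil-rule cells had 2158 against 3844 CPM of Ccl3, 1578 against 2137 CPM of Ccl4 and 4470 against 5241 CPM of Cxcl2. Ccl9 was at 741 against 754 CPM there and Ccl6 at 3596 against 2818 CPM. In the basophil-like cluster, chosen by all clustering genes in place of 3, the log2 ratios were −0.81 for Ccl3, −0.43 for Ccl4, −0.22 for Cxcl2, −0.02 for Ccl9 and 0.36 for Ccl6.

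Single basophil-rule cells varied widely. Ccl3 per 10000 UMIs ran from 0 through a median of 22.0 to 130 in the deoxycholic acid cells, and from 0 through 38.9 to 294 in the media control cells. Ccl4 had a median of 2.19 in deoxycholic acid cells and 5.04 in media control cells, the highest media control cell had 322, and 54.3% of the deoxycholic acid cells and 61.8% of the media control cells had at least 1 UMI of it. Both genes were thus lower in the median cell as well as in the sum, while the ranges overlapped.

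For Cxcl2 and Ccl6 the median cell and the sum did not point the same way in every set. Cxcl2 had a median of 14.1 against 19.05 per 10000 over all basophil-rule cells, but of 22.6 against 20.1 over those in cluster 12. Ccl6 had a median of 13.7 against 18.9 per 10000 over all basophil-rule cells, although its sum was higher with deoxycholic acid, and of 22.5 against 21.4 over those in cluster 12. A single deoxycholic acid cell held 222 of the 1748 Ccl6 UMIs, 12.7%, and a single media control cell held 207 of 3301. Without these cells the Ccl6 log2 ratio was 0.10 (0.01 to 0.18). The same step left Ccl3 at −1.03, Ccl4 at −0.70, Cxcl2 at −0.43 and Ccl9 at −0.19 (−0.37 to −0.01), and it took Cxcl10, which had 19 of its 48 UMIs in 1 cell, to −0.07.

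**Figure D4:**
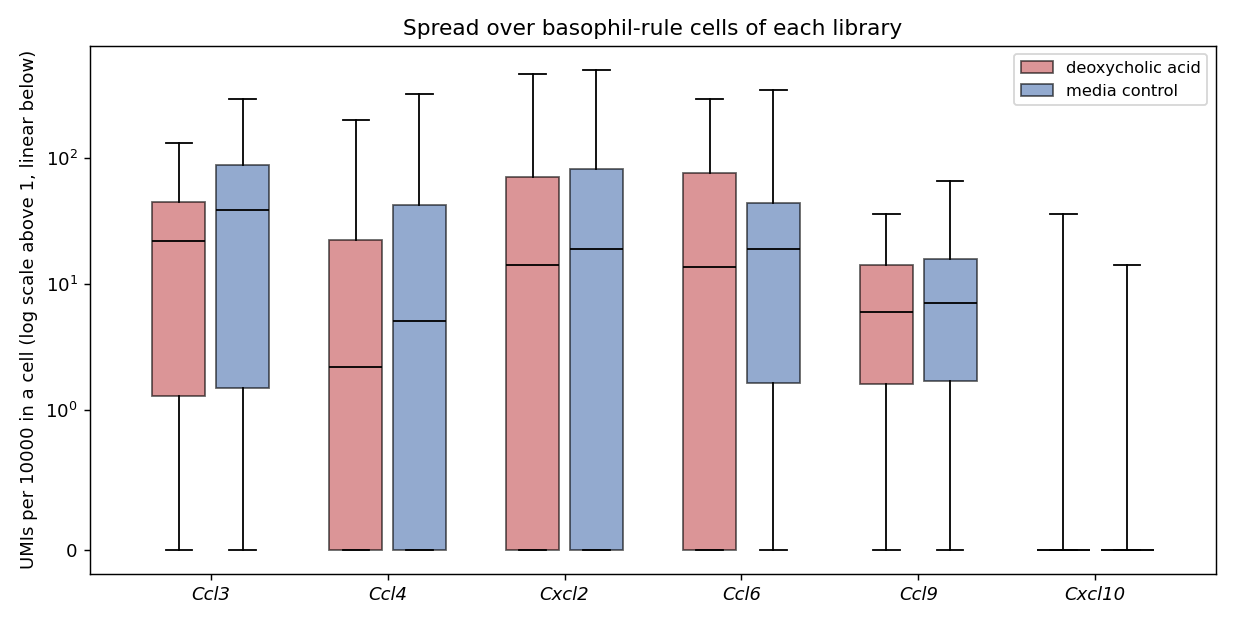
UMIs per 10000 in single basophil-rule cells, 92 from the deoxycholic acid library (left box of each pair) and 152 from the media control library. Boxes span the quartiles, the line is the median and whiskers reach the lowest and highest cell; the axis is logarithmic above 1 and linear below. Ccl3 and Ccl4 medians are lower with deoxycholic acid and every pair of ranges overlaps.

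Ccl3 was lower within clusters as well as in the sum. Its log2 ratio and the whole of its interval lay below 0 in 13 of the 13 compared clusters with a value, the basophil-like cluster among them, from −1.02 in cluster 9 to −0.47 in cluster 4, with a median of −0.74. In mature neutrophil-like cells Ccl3 had 269 UMIs and 46.5 CPM with deoxycholic acid, against 646 UMIs and 89.3 CPM in the media control (−0.94, −1.15 to −0.73). In cluster 11 it was at 61.1 CPM against 102 CPM, in cluster 10 at 24.7 against 38.5 CPM and in GMP-like cluster 3 at 15.5 against 25.2 CPM. The median over all genes measured in these clusters lay between −0.05 and 0.08, and 35.3% to 55.9% of the genes of a cluster lay below 0. Cluster 14, with 15 and 24 cells too small to be compared, went the other way, at 2422 CPM against 881 CPM. Clusters 13 and 15 had Ccl3 in the media control only, as 2 UMIs and 1 UMI.

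The Ccl3 level of the other cells was set beside a limit on free basophil RNA. The limit assumes that free basophil RNA holds Ccl3 and Fcer1a in the ratio they have in basophil-rule cells, which was not tested. On that assumption, the 2 and 1 Fcer1a UMIs found outside gave limits of 1.39 CPM of Ccl3 with deoxycholic acid and 1.25 CPM in the media control. The measured levels were 26.7 and 41.6 CPM. For Ccl4 the same limits were 1.01 and 0.697 CPM beside 4.08 and 4.36 CPM. The limits are wider with genes that other cells may also use. By Mcpt8 they were 10.2 and 20.9 CPM for Ccl3, and 7.42 and 11.7 CPM for Ccl4. By Ms4a2 they were 7.98 and 13.9 CPM for Ccl3, and 5.81 and 7.75 CPM for Ccl4. By Gata2 they were 4.29 and 10.2 CPM for Ccl3, and 3.12 and 5.69 CPM for Ccl4. These limits were higher in the media control, and the part of free RNA in the difference between the libraries was not tested. The limit thus depended on the marker, and whether free basophil RNA gave the Ccl3 or Ccl4 of the other cells was not tested. Free RNA from cells other than basophils was not tested.

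The share of cells with a Ccl3 UMI showed the same order at equal depth. With each cell thinned to 5000 UMIs and shallower cells left out (599 deoxycholic acid and 612 media control cells), Ccl3 was seen in 9.60% of deoxycholic acid cells (8.92 to 10.3) and 13.7% of media control cells (12.9 to 14.5) outside the basophil rule. Without thinning the shares were 18.8% and 27.8%. Within clusters at 5000 UMIs, mature neutrophil-like cells had 14.3% against 22.5%, with intervals apart. Cluster 10 (12.2% against 12.9%) and cluster 6 (13.2% against 15.7%) were among those whose intervals overlap. Cluster 13 had almost no Ccl3, with 0 of 18 and 1 of 38 cells at 5000 UMIs. Thinning left out 46 and 48 of its cells, and the intervals reach 18.5% and 13.8%. It therefore sets no floor for the other clusters. In basophil-rule cells the thinned shares were 59.1% (43.2 to 73.7) of 44 cells and 69.6% (59.7 to 78.3) of 102 cells, and their intervals overlap.

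Ccl3-rich cells occurred outside the basophil rule too. At least 10 Ccl3 UMIs per 10000 were found in 17 deoxycholic acid cells and 54 media control cells that did not meet the basophil rule, 0.222% and 0.647% of cells. They held 7.47% and 8.70% of the Ccl3 UMIs there. Of them, 9 and 8 lay in cluster 14, 2 and 19 among mature neutrophil-like cells, and 1 and 3 in the basophil-like cluster. All Ccl3-rich cells together had 1413 and 541 CPM of Cxcl2, against 131 and 115 CPM in the rest, and 1376 and 1427 CPM of Ccl6, against 253 and 276 CPM. Their median depth was 3001 and 4230 UMIs.

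Cxcl2 was not uniform across the other clusters. It was higher with deoxycholic acid in 7 and lower in 6 of 13 clusters with a value, with 7 intervals above 0 and 4 below. Of all genes measured in these clusters, 35.3% to 55.9% lay below 0. Cxcl2 was higher in both GMP-like clusters and in 5 others. In the GMP-like clusters it was at 118 CPM against 79.2 CPM in cluster 3 (0.58, 0.49 to 0.67) and at 125 CPM against 92.4 CPM in cluster 5 (0.43). It was also higher in cluster 1 (71.2 against 47.0 CPM, 0.60), cluster 6 (61.2 against 45.8 CPM, 0.42), cluster 4 (0.43), cluster 10 (0.30) and cluster 11 (544 against 396 CPM, 0.46). It was lower in cluster 8, which histone genes lead (55.2 against 88.2 CPM, −0.68), in cluster 7, led by Bnip3 and Ankrd37 (54.0 against 73.7 CPM, −0.45), in cluster 2 (−0.25) and in the basophil-like cluster (−0.22). Mature neutrophil-like cells, at 368 against 387 CPM, and cluster 9, at 230.1 against 235 CPM, were level within counting error.

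Ccl6 was lower with deoxycholic acid in 12 of 14 clusters, with 11 intervals below 0, where 35.3% to 68.2% of all genes measured in a cluster lay below 0. In mature neutrophil-like cells, its main source, it was at 1916 CPM with deoxycholic acid and 2360.0 CPM in the media control (−0.30, −0.34 to −0.27). In cluster 11 it was at 357 against 495 CPM (−0.47), and in the immature neutrophil-like clusters it ranged from −0.18 to −0.14. The basophil-like cluster, at 3553 against 2769 CPM (0.36, 0.28 to 0.44), was the exception with an interval above 0. Almost every mature neutrophil-like cell held Ccl6 at 5000 UMIs, 98.5% with deoxycholic acid and 99.1% in the media control.

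Beside the same 35.3% to 68.2% of all genes, Ccl9 was also lower in 12 of 14 clusters, but only 5 intervals lay below 0. Its main sources were among them, with 79.3 CPM against 93.9 CPM in cluster 10 (−0.24, −0.38 to −0.11), 34.2 against 45.0 CPM in cluster 3 (−0.40) and 41.9 against 51.1 CPM in cluster 5 (−0.29). Cluster 9 was at 26.4 against 38.3 CPM (−0.54). In the basophil-like cluster Ccl9 was level, at 731 against 741 CPM. Cluster 10 itself was a smaller part of the deoxycholic acid library, with 4.89% of its cells against 6.55%.

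Ccl4 was lower in 8 and higher in 5 of 13 clusters outside and inside the basophils, and the interval lay below 0 only in the basophil-like cluster (1554 against 2089 CPM, −0.43, −0.54 to −0.31). In cluster 10, the next source by UMIs, it was at 10.99 CPM against 11.21 CPM (−0.03, −0.40 to 0.34). In cluster 11 the log2 ratio was −0.08, but 1 deoxycholic acid cell held 25 of 46 UMIs, and without the highest cell of each library it was −0.82 (−1.62 to −0.07). In cluster 7 it was 0.22, but 1 deoxycholic acid cell held 34 of 52 UMIs, and without the highest cells it was −1.02 (−1.91 to −0.18). Outside basophil-rule cells the intervals of Ccl3 (−0.71 to −0.58) and Ccl4 (−0.27 to 0.07) did not overlap. They cover counting error only, and few cells held most of the Ccl4 UMIs there. The basophil-like cluster held the largest share of the UMIs of both genes, 35.9% for Ccl3 and 73.0% for Ccl4.

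Cxcl10 was higher in 10 and lower in 4 of 14 clusters, with 5 intervals above 0 and 2 below. Of all genes measured in a cluster, 35.3% (cluster 2) to 68.2% (cluster 13) lay below 0, and most clusters had more genes above 0 than below. The count of 10 higher therefore does not by itself set Cxcl10 apart, and cluster 0 had only 3 UMIs against 1 UMI. In cluster 10, its largest source, it was at 88.4 CPM with deoxycholic acid and 45.4 CPM in the media control (0.96, 0.81 to 1.11), from 78 of 379 and 112 of 556 cells. The positive cells made up 20.6% and 20.1% of cluster 10, and at 5000 UMIs 14.4% and 12.4%, while their UMIs differed more. Leaving out the highest cell of each library there gave 0.95. GMP-like cells were level, at 23.3 against 22.5 CPM in cluster 3 and 15.6 against 15.7 CPM in cluster 5, although 1 media control cell held 118 of the 502 UMIs of cluster 3, where leaving out the highest cells gave 0.34 (0.13 to 0.56). Clusters 1 (2.80 against 1.57 CPM, 0.84) and 7 (3.17 against 0.825 CPM, 1.94) were higher at low levels. Without the highest cells the value was 0.65 (−0.086 to 1.39) in cluster 1 and 1.03 (−0.40 to 2.59) in cluster 7, where 1 deoxycholic acid cell held 15 of 28 UMIs. Single cells also held much of the UMIs of clusters 13, 11 and 2. In cluster 13 all 26 deoxycholic acid UMIs came from 1 cell, against 8 UMIs in the media control. In cluster 11, where the log2 ratio was 1.23, 1 cell held 50 of 81 UMIs, and without the highest cells the value was 0.17 (−0.55 to 0.88). Cluster 2 (8 against 36 UMIs, −1.75) and cluster 8 (27 against 106 UMIs, −0.94) went the other way. In cluster 2, 1 deoxycholic acid cell held 6 of the 8 UMIs and 1 media control cell held 23 of the 36.

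Ccl2 differed mainly through cluster 13. It was at 145 CPM there with deoxycholic acid and 318 CPM in the media control (−1.13, −1.62 to −0.67), from 7 of 64 and 29 of 86 cells, with the median of all genes measured in that cluster at −0.23. A single deoxycholic acid cell held 23 of the 47 UMIs and a single media control cell 72 of the 206. Cluster 11 had 34 UMIs against 31 UMIs (0.70, −0.05 to 1.45), and without the highest cells −0.18. Cluster 10 had no Ccl2 UMI in 379 deoxycholic acid cells, against 24 UMIs in 556 media control cells. Mature neutrophil-like cells had 1 UMI against 14 UMIs. Outside cluster 13 the log2 ratio of Ccl2 was −0.65, on few UMIs.

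**Figure D5:**
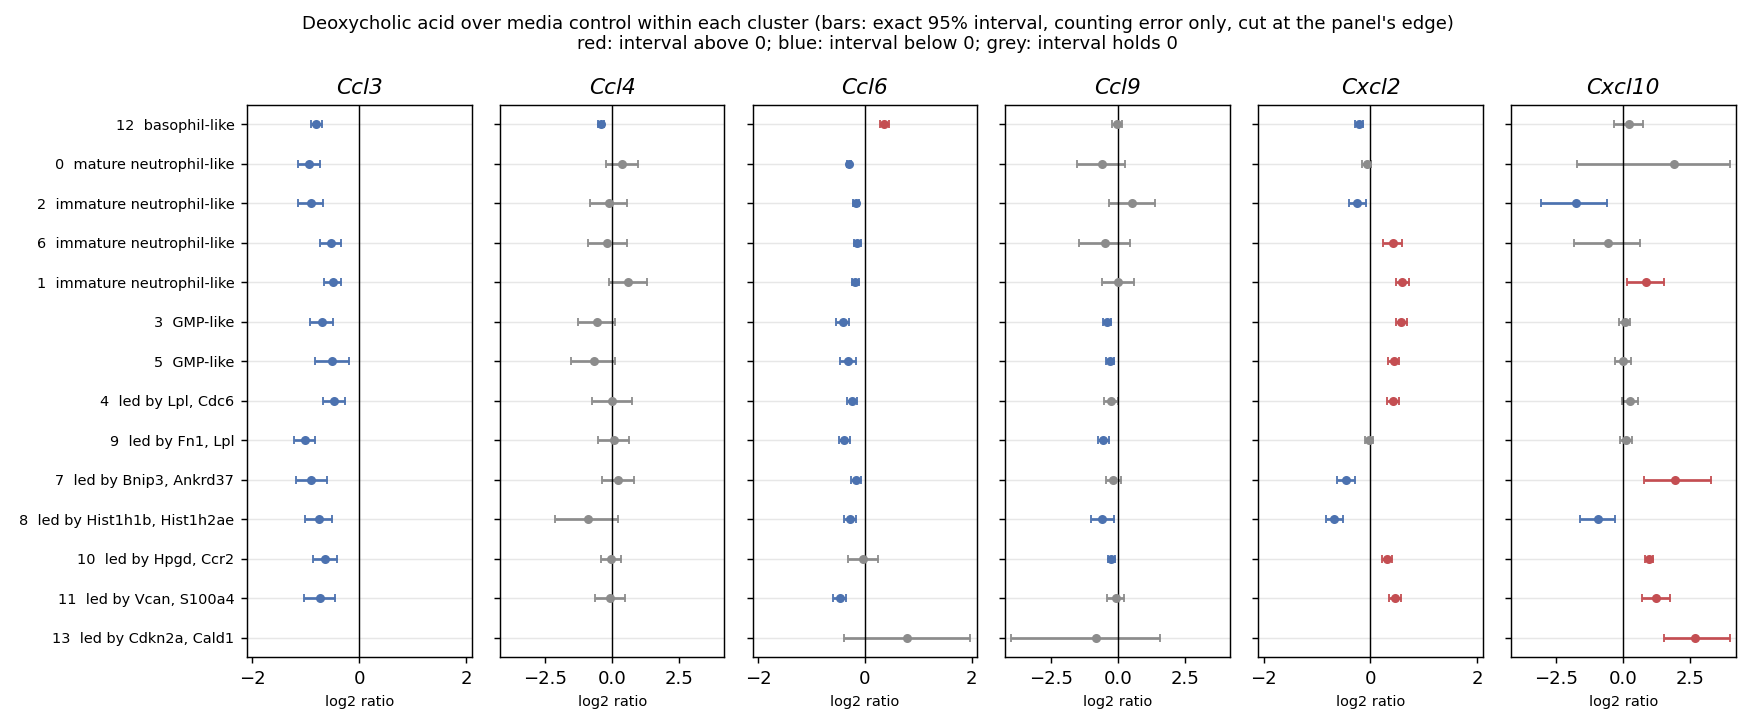
Log2 ratio, deoxycholic acid over media control, of 6 chemokine genes within each of 14 compared clusters. Points are values of 1 library pair, bars are exact 95% intervals for counting error that end at the edge of a panel, and clusters with no UMI in either or both libraries have no point. Ccl3 lies left of 0 in 13 of 13 clusters, while Cxcl2 and Cxcl10 lie on both sides.

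The receptors of these ligands were measured in the same cells, with 4 of 23 listed chemokine receptors past a minimum of 5 CPM and 20 UMIs. Ccr1, which binds Ccl3, Ccl6 and Ccl9, was at 187 CPM in mature neutrophil-like cells and 437 CPM in cluster 14, and its summed level was 36.3 CPM with deoxycholic acid and 31.6 CPM in the media control (0.20, 0.14 to 0.26). Ccr2, the receptor of Ccl2, was at 126 CPM in the basophil-like cluster, 58.5 CPM in cluster 10 and 44.2 CPM in cluster 11. With deoxycholic acid it was lower, at 5.33 CPM against 9.35 CPM (−0.81, −0.95 to −0.68), and in cluster 10 at 43.4 against 66.0 CPM (−0.61, −0.78 to −0.43). Cxcr2, the receptor of Cxcl2, was at 161 CPM in mature neutrophil-like cells, and in the sum at 15.1 against 13.9 CPM (0.12). Cxcr4 was level (10.2 CPM in both). Cxcr3, the receptor of Cxcl10, was scarce, with 15 against 37 UMIs.

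Of 29 other chemokines listed, 28 were in the table, and 3 passed the same minimum. Ccl25 (8.58 against 8.93 CPM) was level, Ccl27a (5.05 against 3.49 CPM, 0.53) was higher and Pf4, a chemokine of platelets and their precursors, was lower (9.81 against 15.2 CPM, −0.63). Pf4 was not uniform across clusters, with 121 against 730 UMIs in cluster 15 and 0 against 74 UMIs in cluster 13. In cluster 11 it was higher, with 92 against 28 UMIs (2.28), and in cluster 3 level (0.03). Cxcl3, a close relative of Cxcl2 with 51 UMIs against 161 UMIs, shared its sources, at 40.1 CPM in the basophil-like cluster and 306 CPM in cluster 14. In basophil-rule cells Cxcl3 had 6 UMIs against 62 UMIs (9.66 against 46.4 CPM, −2.26, −3.76 to −1.06).

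Genes of the NF-kappaB pathway and its feedback, from a list of 17, had log2 ratios on both sides of 0 over all cells. Of 12 measured, 6 were higher and 6 lower, with a median log2 ratio of 0.05, beside 0.05 for all 8203 genes past the same minimum. Nfkbia, the inhibitor that NF-kappaB itself induces, was at 286 CPM with deoxycholic acid and 360 CPM in the media control (−0.33), and Zfp36, which destabilises cytokine transcripts, was at 22.6 against 32.1 CPM (−0.51). Ier3, an early response gene, was at 70.4 against 86.8 CPM (−0.30) and Nfkb1, a subunit of the factor, at 38.1 against 39.2 CPM (−0.04, −0.09 to 0.02). In basophil-rule cells 13 were measured, 8 lower and 5 higher, with a median of −0.32 beside −0.02 for all 5880 genes. Of the 3191 genes there past the background minimum used earlier, which is higher than that of the list, 55.1% lay below 0. The count of 8 lower therefore does not by itself set the list apart in basophil-rule cells. By at least 0.5, 5 of the 13 were lower and 3 higher, beside 10.7% and 5.39% of those 3191 genes in basophil-rule cells. There Ier3 was at 1761 against 2704 CPM (−0.62), Zfp36 at 330.0 against 628 CPM (−0.93), Rel at 61.2 against 112 CPM (−0.88) and Tnf at 25.8 against 59.8 CPM (−1.22). Nfkb2 (0.60), Rela (0.67) and Tnip1 (0.55) were past 0.5 on the other side, on at most 20 deoxycholic acid UMIs each, with intervals that include 0. Nfkbia was at 1048 against 1615 CPM (−0.62) there. Their part in the chemokine differences was not tested.

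Of 14 interferon-response genes listed, 3 were measured, and all 3 had a log2 ratio above 0. Their median was 0.25, beside 0.05 for all 8203 genes past the same minimum. Of the 4670 genes past the background minimum used earlier, which is higher than that of the list, only 43.0% lay below 0. The count of 3 above 0 therefore does not by itself set the list apart. Cmpk2, a nucleotide kinase, was at 11.8 CPM with deoxycholic acid and 9.92 CPM in the media control (0.25), and Irf1, a transcription factor that interferons induce, was at 6.50 against 6.35 CPM (0.03, −0.10 to 0.17). Of 7 basophil cytokines, 4 were measured in basophil-rule cells. Osm was lower (254 against 325 CPM, −0.36, −0.63 to −0.09), while Il4 (−0.30), Il6 (0.20) and Csf1 (−0.23) had intervals that include 0.

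Genes whose log levels ran most like a chemokine across the 14 compared clusters, among 7002 candidates, are named as a description. The closest to Ccl3 were Csf2rb2 (Pearson r = 0.985, and 0.92 without the basophil-like cluster), Rgs2, Rel, Ndst2 and Ier2, and the closest to Ccl4 was H2-Oa (r = 0.998, 0.95), followed by Ptger3, P2ry10, C3ar1 and Rgs1. Lilrb4a came closest to Ccl6 (r = 0.97, 0.96), before Txnip, Cmip and Ssh2. Crip1 came closest to Ccl9 (r = 0.98, 0.96), before Ly6e, Galnt7, Slc3a2 and Lgals3bp. For Cxcl2 it was Slc7a11 (r = 0.98, 0.96), before Clec4e, Ggh, Nlrp3 and Zfp36, and for Cxcl10 it was Slc7a6os (r = 0.96, 0.94), before Slc39a6, Nmd3, Crtap and Pura. Among the chemokines themselves Ccl3 and Ccl4 had r = 0.96 (0.68 without the basophil-like cluster), and Ccl3 and Cxcl2 had r = 0.91 (0.79 without it). Ccl9 and Cxcl10 had r = 0.82 (0.77 without it). All clusters share the 2 libraries, so these values describe cell types and not separate samples.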

How the data were processed

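Values are the UMI counts per gene and cell that the authors deposited in 1 table, made with Cell Ranger 6.0 per the submitters' processing notes from 10x Chromium 3′ libraries (kit v3.1). Neither the genome build nor a cell filter of the authors is stated in the labels. Column names give only the group, so the 4 samples per group were summed as 1 library, and lithocholic acid cultures were not analysed here. Cells with at least 300 genes and at most 10% mitochondrial UMIs were kept, and the 6% with the highest doublet score were removed before clusters were made. Doublet removal took 6.80% of deoxycholic acid and 6.27% of media control cells. Clustering used 2000 variable genes without 35 chemokine genes, 30 principal components, 15 neighbours and Leiden resolution 1 (scanpy 1.11.5, leidenalg 0.10.2, igraph 0.11.9, scikit-learn 1.9.0). A cluster took a cell type name where at least 3 fixed markers of it were raised and it led every other type, both in raised markers and among the 10 leading genes. That rule was set after the marker counts were seen.

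Ratios are of summed counts, with exact Poisson intervals on levels and exact binomial intervals on ratios and shares (numpy 2.4.6, scipy 1.17.1, pandas 2.3.3, Python 3.11.15). The steps were tested on simulated data. The named genes are the 7 chemokines, the 5 genes most like each with 200 or more UMIs per library, and from each list the 4 highest measured genes and those past a log2 ratio of 0.5. Ccl7, Cxcl3, Cxcl5, Cxcl12 and Cxcr3 fall outside this rule and were chosen after their values were seen. The chemokines, lists and comparisons were chosen with earlier results of these data known. Alternatives covered the cell filter, doublets, size factors, a mean over cells, thinning, transcript length, cluster makeup, chemokine genes in the clustering, Leiden resolution 2 and the basophil threshold. A few genes that this rule names are not reported here.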

Additional observations from a re-analysis of the deposited data

Results flagged for a closer look

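For 2 of the chemokines the ratio of deoxycholic acid over media control had opposite signs in basophil-rule cells and in the other cells. The Cxcl2 log2 ratio was −0.40 in basophil-rule cells and 0.19 in the other cells. The Ccl6 log2 ratio was 0.19 in basophil-rule cells and −0.13 in the other cells. With 1 library per group, the difference was not tested for either gene. For Ccl6 the value in basophil-rule cells leaned on single cells, since 1 deoxycholic acid cell held 12.7% of the UMIs, and without the highest cell of each library the log2 ratio was 0.10. For Cxcl2 the same step gave −0.43.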

How the results depend on the processing

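No paired analysis was possible because the cell names carry only the group, and for the same reason no replicate could be left out. Over all kept cells, Ccl3, Ccl4, Ccl6, Ccl9 and Ccl2 stayed lower and Cxcl10 higher under each alternative run, while Cxcl2 changed sign. Keeping all cells or the doublets gave Cxcl10 0.14 each. Size factors gave Ccl3 −0.998, Ccl6 −0.20 and Cxcl2 −0.070, and they shift the median gene by 0.052. A mean over cells gave Ccl3 −1.15, Ccl4 −0.97, Ccl6 −0.26, Ccl9 −0.57 and Cxcl2 −0.19. Thinning to 5000 UMIs gave Ccl2 −2.23, Ccl3 −1.54, Ccl4 −2.36, Ccl6 −0.43, Ccl9 −0.66 and Cxcl2 −0.44; by construction it leaves out shallow cells, among them 48 of 92 and 50 of 152 basophil-rule cells and 46 of 64 and 48 of 86 cells of cluster 13. Subtracting a length trend gave Ccl9 −0.56 and Cxcl2 −0.071. The cluster makeup of the media control gave Ccl3 −0.72, Ccl4 −0.35, Ccl6 −0.20, Ccl9 −0.26, Cxcl2 0.10 and Cxcl10 0.44. Alternatives chosen after seeing the data were thinning to 2000 UMIs (Ccl2 −1.61, Ccl3 −1.12, Ccl6 −0.23, Ccl9 −0.63, Cxcl2 −0.22, Cxcl10 0.10), Ccl2 without cluster 13 (−0.65), and leaving out the highest cell of each library, which moved no sum beyond counting error. Without basophil-rule cells, keeping all cells gave Cxcl2 0.16, size factors gave Ccl6 −0.19 and Cxcl2 0.14, and a mean over cells gave Ccl6 −0.25. There, thinning to 5000 UMIs gave Ccl2 −2.24, Ccl6 −0.36 and Cxcl2 0.090, and thinning to 2000 gave Ccl2 −1.68, Ccl4 0.15, Ccl6 −0.21 and Cxcl10 0.065. The length trend gave Ccl9 −0.52 and Cxcl2 0.13, and the control makeup gave Ccl6 −0.25, Ccl9 −0.31 and Cxcl10 0.45. Moving the basophil threshold to 5 or 20 UMIs per 10000, or leaving out the basophil-like cluster in place of the rule cells, moved none of these ratios beyond counting error; at 20 the share of media control UMIs in basophil-rule cells was 38.3% for Ccl3 and 23.3% for Cxcl2. The share of UMIs in the leading cluster, with deoxycholic acid and in the media control, was 40.4% and 39.3% for Ccl6, 27.3% and 30.4% for Ccl9 and 52.7% and 50.0% for Cxcl10 with chemokine genes in the clustering, against 35.2% and 34.6%, 21.9% and 26.4%, and 36.5% and 31.2% without them. Leiden resolution 2, which makes finer clusters, gave 21.3% and 23.1% for Ccl6, 17.7% and 22.2% for Ccl9 and 29.995% and 32.3% for Cxcl10. Except where construction is named, the cause was not tested. Without basophil-rule cells Ccl3 ran from −0.70 to −0.62 over the alternatives, the narrowest of these ranges. Ccl2, and Cxcl10 and Ccl4 outside basophils, are limited by few UMIs in few cells, and every value by 1 library per group.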
